A study of Mus musculus with 18 samples.

Results

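Lysosomal genes were followed through pharmacological inhibition of choline metabolism in mouse bone marrow-derived macrophages (BMDM). The set held 51 genes of the lysosome and its control: 12 cathepsins and related lysosomal proteases, 13 other hydrolases, 2 luminal cofactors, 6 lysosomal membrane proteins, 15 genes of the vacuolar proton pump (V-ATPase) and the 3 transcription factors *Tfeb*, *Tfe3* and *Mitf*. The rule for members uses their known place in the lysosome and no measured value, although it was written with earlier results of these data known. Their Ensembl identifiers were matched to gene symbols of the GRCm38 annotation, which placed 51 of 51 among the 55385 genes of the count table. All 51 passed the filter on low counts that left 14979 genes for testing.

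The BMDM came from 12-week-old female C57BL/6J mice, were grown in medium with 20% L-929 culture supernatant, and were harvested on day 7. Cells received vehicle (Veh, 0.1% DMSO), 250 µM hemicholinium-3 (HC3), which blocks choline uptake, or 5 µM RSM-932A (RSM), an inhibitor of choline kinase, for 24 h. For a further 24 h they either stayed unpolarized (M[0]) or were given IL-4 at 20 ng/mL to polarize them (M[IL-4]), which gave 6 groups of 3 libraries from 3 individual mice. The sample labels give no DMSO content for the HC3 and RSM groups. The inhibitors were used at different doses, and the Veh libraries are shared by the HC3 and RSM comparisons. Poly-A RNA was sequenced, and levels are given as CPM (read counts scaled to library size, with TMM factors), or as RPKM, which also divides by exon length, where genes are compared with each other.

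Library totals ran from 17457796 to 19522255 counts, and the members together took 5.47% to 6.88% of each library. Mitochondrially encoded genes took 1.68% to 2.20% of counts in Veh, 2.5% to 3.45% under HC3 and 0.665% to 0.829% under RSM. *Adgre1*, which encodes the macrophage marker F4/80, and *Csf1r*, the M-CSF receptor, averaged 2837 and 3967 CPM in Veh M[0]. Of the 8 macrophage markers, all 8 fell with HC3 in M[0] and 6 fell with RSM, beside 21.5% and 20.7% of all genes. In M[IL-4], 1 rose and 7 fell with HC3, beside 18.9% and 19.9% of all genes. With RSM in M[IL-4], 3 rose and 1 fell, beside 20.1% and 18.5%. The summed level of the 8 markers lay between 19380 and 20470 CPM in Veh M[0], between 7846 and 9051 under HC3 and between 15160 and 16740 under RSM. *Lyz2* weighs most in these sums, with means of 11630, 5071 and 11660 CPM. The matching ranges in M[IL-4] were 11980 to 12760, 7326 to 8705 and 12360 to 14710 CPM. Stromal markers summed to between 648.5 and 1106 CPM in Veh M[0], to between 1886 and 2519 under HC3 and to between 1377 and 2084 under RSM. In M[IL-4] the stromal ranges were 343 to 795.2, 798.7 to 1511 and 712.9 to 1383 CPM. *Acta2*, *Col1a1* and *Col1a2* made up most of these sums, and the stromal markers did not all move alike. Of 7 tested, 4 rose with HC3 in M[0] (beside 22.6% of all genes), and 3 rose and 1 fell with RSM (beside 20.5% and 20.7%). The last was *Dcn*, lower with RSM in M[0] (log2 fold change -1.51) and in M[IL-4] (-1.55). *Pdgfra* averaged 22.1, 19.0 and 16.2 CPM in Veh, HC3 and RSM M[0]. Neutrophil markers never summed above 1.99 CPM, nor dendritic cell markers above 3.37 CPM. B cell markers summed to at most 27.8 CPM, in Veh M[0], nearly all of it *Ighm*. The part of these shifts in the results on lysosomal genes was not tested, and in bulk RNA fewer cells of a type and less RNA per cell cannot be told apart.

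Lysosomes are the acidic compartments in which macrophages degrade what they engulf and what autophagy delivers. The V-ATPase, built from a cytosolic V1 part that hydrolyses ATP and a membrane V0 part that carries protons, acidifies the lumen, and soluble hydrolases that work at low pH cleave proteins, glycans and lipids there. TFEB, TFE3 and MITF are related basic helix-loop-helix factors that can bind E-box sequences near many lysosomal genes, and their entry into the nucleus is largely set by phosphorylation downstream of mTORC1, so their transcript levels describe only their supply.

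Promoter windows, from 250 bases before to 50 bases after each annotated start, were available from RefSeq (GRCm38.p6) for 42 of the 51 members. *Ctsb*, *Ctsh*, *Galns*, *Asah1*, *Atp6v0d2*, *Atp6v1b2*, *Atp6v1c1*, *Atp6v1g1* and *Atp6v1h* had no entry. Each window was searched for the E-box core CACGTG and for its 8-letter form TCACGTGA, which contains the core. Both read the same on either strand. The core was found in 14 of 42 members (33.3%), against 8.09% of the 27025 genes in the table and 7.15% of its 32851 windows. TCACGTGA was found in 6 members (*Ctsa*, *Ctsd*, *Gla*, *Mcoln1*, *Atp6v0d1* and *Atp6v1a*), or 14.3%, against 1.12% of genes and 0.974% of windows. The windows below are shown as examples with and without the 8-letter form. *Gla*, *Ctsd*, *Mcoln1* and *Atp6v0d1*, with the 8-letter form, have modestly higher transcript levels under the inhibitors, and *Gusb* and *Man2b1*, with no match, have lower ones. They were picked after these values were seen and do not stand for all members. Of members not shown, *Ctsa* and *Atp6v1a* hold the 8-letter form and passed the FDR in none of the 4 inhibitor comparisons without a replicate block. *Ctsk*, *Neu1* and *Tpp1*, with no match, rose in all 4. Capitals mark every CACGTG core, with the flanking T and A where the 8-letter form is complete, and each sequence reads 5′ to 3′ on the gene's strand.
*Gla*, chrX:134600956-134601255, strand -: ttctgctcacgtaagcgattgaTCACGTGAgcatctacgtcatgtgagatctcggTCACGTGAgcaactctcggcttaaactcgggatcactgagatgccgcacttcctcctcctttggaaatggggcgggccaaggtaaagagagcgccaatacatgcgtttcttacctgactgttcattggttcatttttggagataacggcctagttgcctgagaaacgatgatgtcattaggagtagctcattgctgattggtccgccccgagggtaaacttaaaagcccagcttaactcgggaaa
*Ctsd*, chr7:142387778-142388077, strand -: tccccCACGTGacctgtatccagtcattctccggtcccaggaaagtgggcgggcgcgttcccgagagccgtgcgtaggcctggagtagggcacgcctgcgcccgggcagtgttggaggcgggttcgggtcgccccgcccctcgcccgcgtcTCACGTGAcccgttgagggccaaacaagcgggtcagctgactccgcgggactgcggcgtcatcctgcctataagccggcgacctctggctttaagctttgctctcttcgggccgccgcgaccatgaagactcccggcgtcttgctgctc
*Mcoln1*, chr8:3500269-3500568, strand +: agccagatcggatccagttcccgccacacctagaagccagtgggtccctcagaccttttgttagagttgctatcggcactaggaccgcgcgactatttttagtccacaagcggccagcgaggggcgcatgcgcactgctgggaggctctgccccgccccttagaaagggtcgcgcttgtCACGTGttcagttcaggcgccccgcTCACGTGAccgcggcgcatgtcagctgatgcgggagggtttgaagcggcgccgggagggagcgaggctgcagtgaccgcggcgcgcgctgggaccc
*Atp6v0d1*, chr8:105566015-105566314, strand -: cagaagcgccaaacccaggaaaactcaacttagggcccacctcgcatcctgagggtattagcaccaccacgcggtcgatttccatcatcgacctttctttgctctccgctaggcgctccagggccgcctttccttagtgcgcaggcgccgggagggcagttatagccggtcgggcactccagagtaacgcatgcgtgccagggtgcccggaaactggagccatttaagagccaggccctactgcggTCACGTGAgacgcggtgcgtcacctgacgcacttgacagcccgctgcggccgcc
*Gusb*, chr5:130003000-130003299, strand -: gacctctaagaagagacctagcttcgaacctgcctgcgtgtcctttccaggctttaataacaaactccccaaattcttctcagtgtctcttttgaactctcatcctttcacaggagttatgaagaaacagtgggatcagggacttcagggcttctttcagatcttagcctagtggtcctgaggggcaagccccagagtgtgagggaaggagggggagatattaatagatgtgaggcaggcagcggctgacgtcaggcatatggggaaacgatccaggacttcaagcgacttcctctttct
*Man2b1*, chr8:85083019-85083318, strand +: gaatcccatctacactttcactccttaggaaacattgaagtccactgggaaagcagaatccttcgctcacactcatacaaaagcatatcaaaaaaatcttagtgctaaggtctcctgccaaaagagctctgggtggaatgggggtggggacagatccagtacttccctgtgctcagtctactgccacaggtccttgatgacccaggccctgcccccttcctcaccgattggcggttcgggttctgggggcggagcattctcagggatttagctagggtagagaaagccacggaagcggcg

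A match is a description of letters and not of binding. The 8-letter form began 228 and 195 bases before the start of *Gla*, 99 before that of *Ctsd*, 46 before that of *Mcoln1* and 4 before that of *Atp6v0d1*. Of the 6 members that hold it, 4 rose with HC3 in M[0] and the other 2 did not pass (median log2 fold change 0.30), where 22.6% of all genes rose. With RSM in M[0], 3 rose and the other 3 did not pass (median 0.25, with *Mcoln1* passing once replicate number was a block, FDR = 0.000961), where 20.5% of all genes rose. Among the 28 members with neither form, 7 rose and 11 fell with HC3 in M[0] (median -0.05), where 21.5% of all genes fell. With the block, *Atp6ap2*, *Lamp2*, *Ctso*, *Atp6v1d* and *Atp6v0c* of the 28 also rose, and *Ctss* and *Hexa* also fell. Of all genes, 28.0% then rose and 25.5% fell. With RSM in M[0], 8 of the 28 rose and 10 fell (median -0.04), where 20.7% of all genes fell. With the block, *Psap*, *Cd63* and *Grn* of the 28 also rose, and *Tfe3*, *Ctss* and *Atp6v1f* also fell. Of all genes, 25.7% then rose and 25.2% fell. Members with a core were not all of 1 direction, since *Ctsf* and *Lgmn* each hold a CACGTG and were among the genes that fell furthest with HC3 in M[0].

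**Figure D1:**
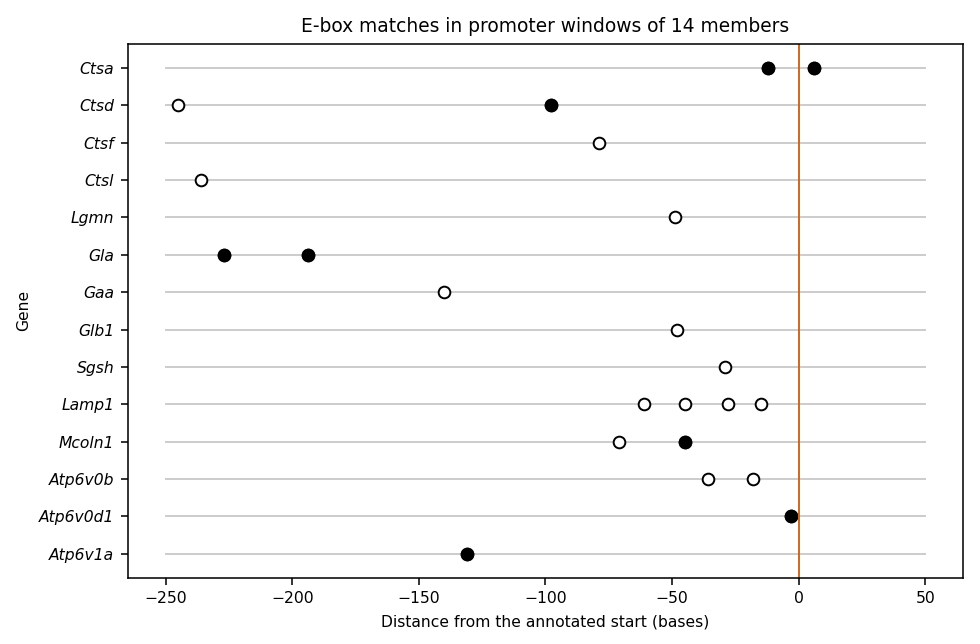
E-box matches in the promoter windows of the 14 members that hold one. The horizontal axis is the distance in bases from the annotated start (orange line), open circles mark CACGTG alone and filled circles mark TCACGTGA. *Lamp1* holds 4 cores within 61 bases of its start, and *Gla* and *Ctsa* hold the 8-letter form at 2 places each.

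Genes are said to rise or fall at a Benjamini-Hochberg false discovery rate (FDR) under 0.05 over all genes tested, from edgeR's quasi-likelihood test. Replicate numbers pair the libraries within a polarization, so where a fit with that number as a block within each polarization changes whether a printed comparison of a member passes, its value is given as the blocked FDR. A gene is called when its change is also at least 2-fold (a log2 fold change of 1 or more in either direction). In M[0], HC3 called 2 of 51 members higher (3.92%, beside 5.93% of all genes) and 5 lower (9.80%, beside 6.11%). By FDR alone 16 members rose (31.4%, beside 22.6%) and 18 fell (35.3%, beside 21.5%), and the count that rose was 10 without HC3 M[0] replicate 2. RSM in M[0] called 1 higher (1.96%, beside 5.05%) and 6 lower (11.8%, beside 6.51%). By FDR alone 16 rose (31.4%, beside 20.5%) and 18 fell (35.3%, beside 20.7%).

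Fewer members passed the 2-fold limit in M[IL-4]. HC3 called none higher (beside 4.72% of all genes) and 1 lower (1.96%, beside 5.53%). The count of 0 stood beside 15 members higher at an unadjusted p under 0.05, and DESeq2 also called 0. The count was 1, *Atp6v1c1*, with library size scaling, without HC3 M[IL-4] replicate 1 and without Veh M[IL-4] replicate 2. By FDR alone 13 rose (25.5%, beside 18.9%) and 17 fell (33.3%, beside 19.9%). RSM called 1 higher (1.96%, beside 5.05%) and 2 lower (3.92%, beside 6.00%). By FDR alone 18 rose (35.3%, beside 20.1%) and 14 fell (27.5%, beside 18.5%).

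The median member moved little: its log2 fold change was 0.02 with HC3 and 0.02 with RSM in M[0], where the median of all genes was 0.02 and 0.01. In M[IL-4] the medians were -0.06 and 0.02, beside 0.01 and 0.02 for all genes. The set thus held genes moving in both directions and had no common shift. In all 4 inhibitor comparisons, 10 members rose (*Atp6v0d1*, *Atp6v1c1*, *Atp6v1g1*, *Ctsd*, *Ctsk*, *Ctsl*, *Gaa*, *Gla*, *Neu1* and *Tpp1*) and 10 fell (*Atp6v0a1*, *Atp6v1b2*, *Ctsb*, *Ctsf*, *Ctsh*, *Gusb*, *Ids*, *Man2b1*, *Mitf* and *Tfeb*). Each is 19.6% of the members, beside 9.59% of all genes that rose and 9.34% that fell in all 4. With the block within polarization, 13 members rose (25.5%, beside 13.5% of all genes) and 14 fell (27.5%, beside 12.1%) in all 4. *Atp6v0b*, *Atp6v1a*, *Atp6v1f* and *Ctsa* passed in none of the 4, which with the block was so for *Atp6v0b* alone. The share of all genes that passed in none was not counted. *Scarb2* fell in M[0] with both inhibitors and rose in M[IL-4] with RSM. The 4 comparisons are not independent, since each pair in the same polarization shares its Veh libraries.

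**Figure D2:**
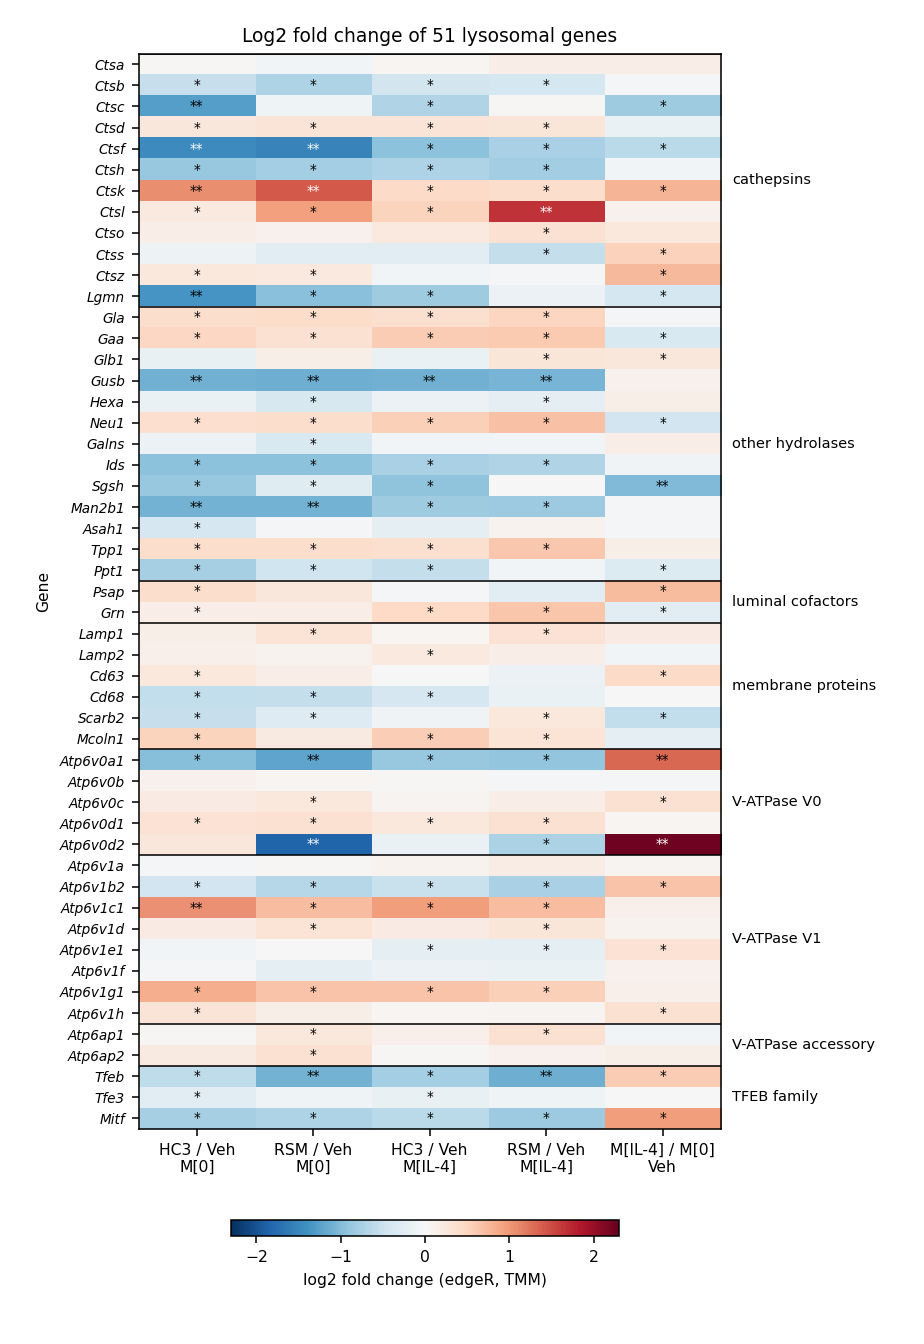
Log2 fold change of the 51 members (rows, by role) in the 4 inhibitor comparisons and with IL-4 in Veh (columns). Red is higher and blue is lower than the reference group; a star marks FDR under 0.05 and 2 stars mark a change of at least 2-fold as well. *Gusb* carries 2 stars in all 4 inhibitor columns, and *Ctsk* and *Atp6v1c1* are red where *Tfeb*, *Mitf* and *Atp6v0a1* are blue.

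The cathepsins held changes in both directions. *Ctss*, the elastase-like cysteine protease that trims invariant chain for antigen presentation, had the highest level per length among them, with a mean of 2954 RPKM over the 6 groups, and *Ctsf* the lowest at 2.19 RPKM. *Ctss* stood at 3654, 4184 and 3367 CPM in Veh M[0] and at 5028, 5946 and 5301 in Veh M[IL-4]. These groups did not overlap, and it rose with IL-4 (log2 fold change 0.54 ± 0.11 SE, FDR = 0.000967). Under RSM in M[IL-4] it was at 3193, 4199 and 3805 CPM, below every Veh library (-0.54 ± 0.11, FDR = 0.000633), whereas under HC3 it was at 4326, 5199 and 4222 CPM and overlapped Veh (FDR = 0.0889, blocked FDR = 6.22e-05).

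*Ctsc* (ENSMUSG00000030560, chr7:88278085-88310888 of GRCm38) encodes cathepsin C, a dipeptidyl peptidase that activates serine proteases of granules. Its level was 246, 225 and 229 CPM in Veh M[0], 94.2, 108 and 87.9 under HC3 and 226, 215 and 212 under RSM. HC3 libraries lay far below the others and RSM libraries overlapped Veh. The change was -1.27 ± 0.10 with HC3 (FDR = 1e-08) and -0.10 ± 0.10 with RSM (FDR = 0.46), and HC3 and RSM differed directly (-1.17 ± 0.10, FDR = 2.67e-07). In M[IL-4] it was 118, 137 and 144 CPM in Veh, 67.4, 94.8 and 84.5 under HC3 and 126, 137 and 142 under RSM, so that IL-4 lowered it in Veh (-0.81 ± 0.10) and HC3 lowered it again (-0.69 ± 0.10, FDR = 2.81e-05).

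*Lgmn* (ENSMUSG00000021190, chr12:102394084-102439813 of GRCm38), the asparaginyl endopeptidase legumain that cleaves other cathepsins to their mature chains, fell with both inhibitors in M[0]. It was at 1295, 1415 and 1381 CPM in Veh, at 528, 558 and 504 under HC3 and at 673, 727 and 702 under RSM, with no overlap among the 3 groups. The changes were -1.36 ± 0.07 (FDR = 1.26e-11) and -0.96 ± 0.07 (FDR = 1.57e-09). In M[IL-4] the levels were 977, 1063 and 1042 CPM in Veh, 577, 629 and 542 under HC3 and 865, 987 and 944 under RSM. HC3 still lowered it (-0.82 ± 0.07), and RSM libraries overlapped Veh (-0.14 ± 0.07, FDR = 0.11, blocked FDR = 0.00976). The RSM change in M[0] was at the 2-fold limit, -1.0, without RSM M[0] replicate 2.

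*Ctsf* (ENSMUSG00000083282, chr19:4855130-4860918 of GRCm38), a cysteine protease of low level here, was at 21.7, 21.9 and 20.6 CPM in Veh M[0]. It was at 6.37, 7.89 and 8.996 CPM under HC3 and 6.56, 7.69 and 8.01 under RSM, far from Veh in every library and overlapping each other. The changes were -1.47 ± 0.14 and -1.53 ± 0.14 (FDR = 7.28e-08 and 4.77e-08). In M[IL-4] the Veh level was itself lower, at 15.5, 13.0 and 13.4 CPM, and the inhibitor libraries lay between 6.36 and 9.64 CPM (-0.94 ± 0.14 with HC3 and -0.75 ± 0.14 with RSM). Without HC3 M[IL-4] replicate 3 the HC3 value was -1.01 and would have been called.

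*Ctsk* and *Ctsl* moved the other way. *Ctsk* (ENSMUSG00000028111, chr3:95499256-95509362 of GRCm38), the collagen-degrading cathepsin K best known from osteoclasts, was at 12.3, 10.6 and 11.5 CPM in Veh M[0], at 26.2, 22.2 and 23.6 under HC3 and at 34.0, 27.0 and 30.3 under RSM. All inhibitor libraries lay above Veh (1.07 ± 0.10 and 1.41 ± 0.10, FDR = 5.78e-08 and 1.27e-09), and the HC3 value was 0.999, just under the 2-fold limit, without HC3 M[0] replicate 1. IL-4 raised it in Veh to 19.5, 20.2 and 19.3 CPM (0.78 ± 0.10), and the inhibitors then added less (0.44 ± 0.09 and 0.41 ± 0.09). Of 8 osteoclast markers, *Calcr* was at 0 in all 18 libraries and *Oscar* never averaged above 0.212 CPM in a group. The other 6 passed the count filter. With IL-4 in Veh, 4 of the 6 were called higher, beside 2.83% of all genes, *Itgb3* among these (14.4 to 95.1 CPM). The other 2, *Mmp9* (10.2 to 6.20 CPM) and *Nfatc1* (78.8 to 62.5 CPM), fell, beside 14.9% of all genes. In M[0], 1 of the 6 rose and 3 fell with HC3, beside 22.6% and 21.5% of all genes. With RSM in M[0], 5 of the 6 fell, beside 20.7%. The part of these markers in the *Ctsk* result was not tested.

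*Ctsl* (ENSMUSG00000021477, chr13:64359337-64370890 of GRCm38), cathepsin L, a broad endopeptidase of the lysosome, rose in every inhibitor comparison and most with RSM. It was at 1481, 1814 and 1646 CPM in Veh M[0], at 1885, 1906 and 2010 under HC3 and at 3345, 2989 and 3221 under RSM. In M[IL-4] it was at 1651, 1842 and 1792 CPM in Veh, 2364, 2691 and 2480 under HC3 and 5187, 5993 and 5638 under RSM, in that order with no overlap. The RSM change was 0.95 ± 0.08 in M[0] and 1.67 ± 0.08 in M[IL-4] (FDR = 1.44e-08 and 1.29e-11), and HC3 libraries lay below RSM libraries in M[IL-4] (-1.16 ± 0.08, FDR = 1.2e-08). Without Veh M[0] replicate 2 the M[0] value was 1.03 and would have been called. Gm47123 on the opposite strand covers 26.8% of the *Ctsl* exons, and no source used here gives the strand setting of the counting.

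The most abundant cathepsins split. *Ctsb*, at 16090 ± 964.2 CPM (SD, n = 3) in Veh M[0], fell in all 4 comparisons, with log2 fold changes of -0.70 ± 0.08 with RSM in M[0] and of -0.40 ± 0.08 to -0.53 ± 0.08 in the others. *Ctsh*, an aminopeptidase, fell in all 4 as well (-0.72 to -0.87). *Ctsd*, the main aspartic protease of the lysosome, rose by 0.26 to 0.30 in each of the 4 comparisons, with 34.4% of its exons shared with Gm49369 on the same strand. *Ctsz* rose in M[0] (0.24 with HC3, 0.23 with RSM) and more with IL-4 in Veh (0.75 ± 0.08), and *Ctso* rose with RSM in M[IL-4] (0.36). Summed over the 12 genes, cathepsin transcripts lay between 30100 and 33860 CPM in Veh M[0], above the 25640 to 28880 CPM under HC3 and the 25830 to 28380 under RSM. *Ctsb* alone averaged 16090, 11160 and 9868 CPM in these groups, so the fall of the sums follows this gene and does not describe the 12 together. By FDR alone, 4 of the 12 rose and 5 fell with HC3 in M[0], beside 22.6% and 21.5% of all genes. With RSM in M[0], 4 rose and 4 fell, beside 20.5% and 20.7%. In M[IL-4] the HC3 sums (27410 to 31280 CPM) and the RSM sums (29430 to 34360) both overlapped those of Veh (30520 to 34470). Exons shared with an antisense gene made up 12.8% of *Ctsb*, 12.8% of *Hexa* and 17.4% of *Ctsa*, whose counts carry the same limit as those of *Ctsl*.

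**Figure D3:**
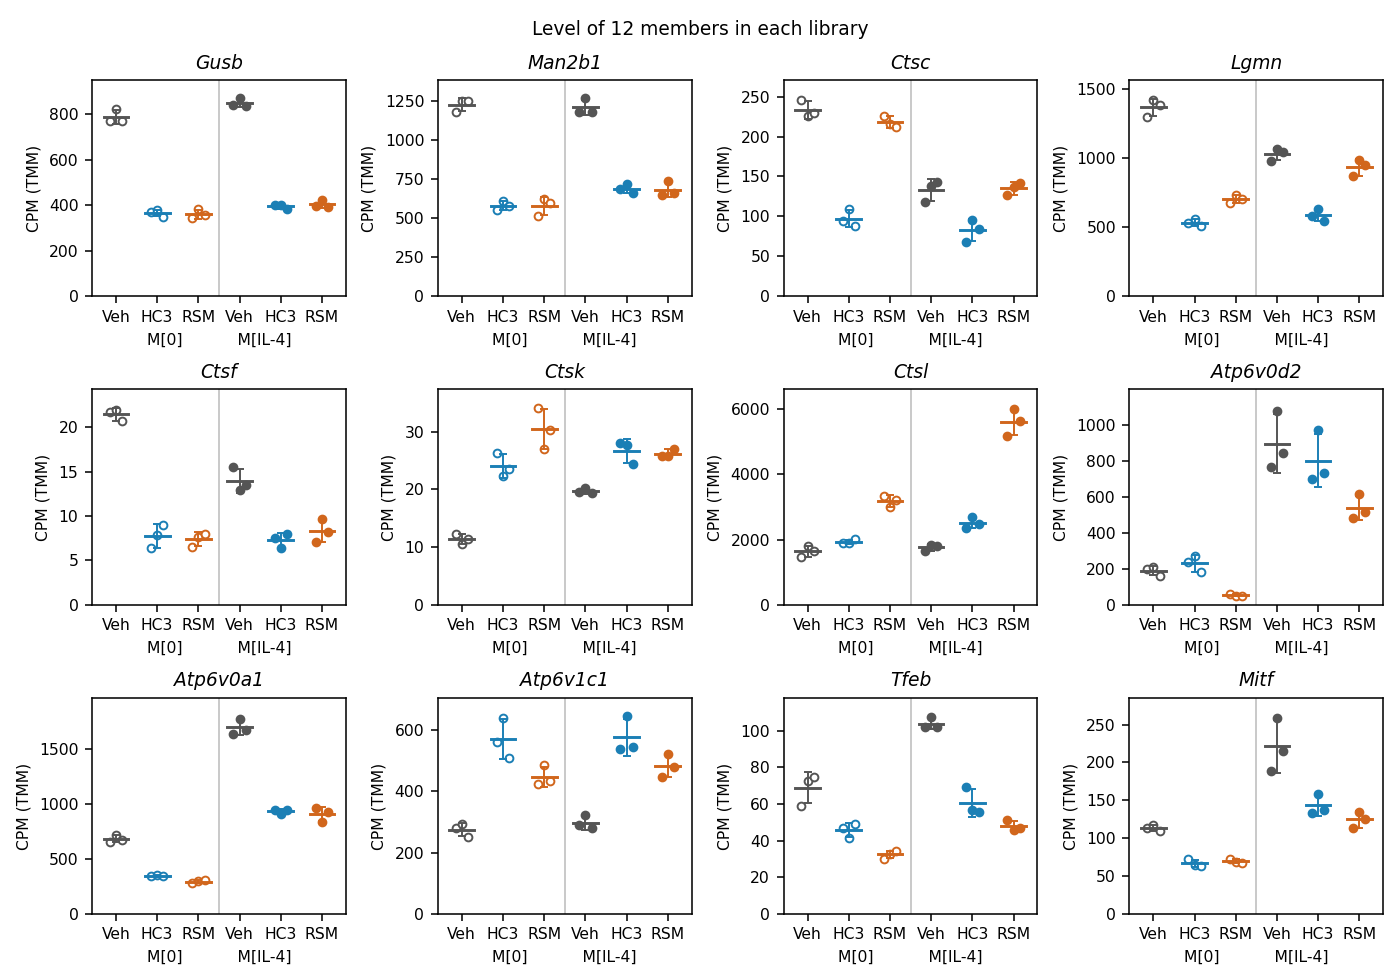
CPM of 12 members in each of the 18 libraries, on linear axes from 0. Circles are libraries (open for M[0], filled for M[IL-4]), horizontal lines are group means and bars are SD (n = 3); Veh is grey, HC3 blue and RSM orange. *Gusb* and *Man2b1* fall to a similar level with both inhibitors, *Ctsc* is lowest in the HC3 libraries of each polarization, and *Atp6v0d2* is low in RSM M[0], near 53.5 CPM.

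The other hydrolases, which cut sugars, sulfates and lipids from their substrates, lost transcript in sum. Their 13 genes summed to between 5127 and 5483 CPM in Veh M[0], to 3862 to 4326 under HC3 and to 3780 to 4272 under RSM. In M[IL-4] the sums were 5103 to 5605, 4114 to 4500 and 4276 to 4890 CPM, and the inhibitor libraries lay below Veh in both polarizations. Much of the lower sum in M[0] lay in *Gusb* and *Man2b1*. Their means were 788.5 and 1223 CPM in Veh, 365.2 and 576.1 under HC3 and 359.9 and 574.8 under RSM. By FDR alone, 4 of the 13 rose and 6 fell with HC3 in M[0], beside 22.6% and 21.5% of all genes. With RSM in M[0], 4 rose and 7 fell, beside 20.5% and 20.7%. *Hexa*, the alpha subunit of beta-hexosaminidase, was highest per length (599 RPKM). It was at 1161, 1371 and 1239 CPM in Veh M[0] and at 887, 1045 and 972 under RSM, which did not overlap (-0.38 ± 0.08, FDR = 0.00098). Under HC3 it was at 1045, 1250 and 1117 CPM and overlapped Veh (FDR = 0.162, blocked FDR = 0.00338). In polarized cells it was at 1339, 1435 and 1363 CPM in Veh, 1269, 1295 and 1188 under HC3 and 1112, 1281 and 1142 under RSM, where the fall with RSM was -0.23 ± 0.08 (FDR = 0.033) and the HC3 change of -0.14 passed only with the block (FDR = 0.186, blocked FDR = 0.00463).

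*Gusb* (ENSMUSG00000025534, chr5:129989011-130003049 of GRCm38), the beta-glucuronidase that removes glucuronic acid from glycosaminoglycans, was the only member called in all 4 inhibitor comparisons. It was at 772, 824 and 770 CPM in Veh M[0], at 369, 377 and 350 under HC3 and at 343, 381 and 356 under RSM. After IL-4 the values were 840, 870 and 838 CPM in Veh, 403, 403 and 382 under HC3 and 394, 424 and 394 under RSM. Each inhibitor library held less than any Veh library of its polarization, and the HC3 and RSM libraries overlapped. The log2 fold changes were -1.11, -1.13, -1.10 and -1.07, each ± 0.06, with FDR between 1.39e-11 and 3.7e-11, and HC3 and RSM differed by 0.02 ± 0.06 in M[0] and -0.03 ± 0.06 in M[IL-4]. IL-4 in Veh moved it by 0.11 ± 0.06 (FDR = 0.156).

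*Man2b1* (ENSMUSG00000005142, chr8:85083270-85098282 of GRCm38), the lysosomal alpha-mannosidase, behaved much alike in M[0], at 1175, 1248 and 1246 CPM in Veh, 549, 605 and 574 under HC3 and 513, 620 and 592 under RSM (-1.09 ± 0.07 for each). After IL-4 the values were 1174, 1264 and 1178 CPM in Veh, 685, 715 and 660 under HC3 and 643, 734 and 660 under RSM, again without overlap with Veh (-0.81 ± 0.07 and -0.83 ± 0.07). *Ids*, the iduronate sulfatase of heparan and dermatan sulfate breakdown, fell with HC3 (-0.95 in M[0], -0.75 after IL-4) and with RSM (-0.94 and -0.69).

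*Sgsh* (ENSMUSG00000005043, chr11:119343425-119355536 of GRCm38), the sulfamidase of heparan sulfate breakdown, responded to HC3 and IL-4. It was at 96.5, 109 and 117 CPM in Veh M[0], 57.0, 56.6 and 63.1 under HC3 and 78.7, 90.9 and 95.8 under RSM. In M[IL-4] it was at 55.6, 54.2 and 50.7 CPM in Veh, 28.1, 26.2 and 30.6 under HC3 and 53.2, 53.3 and 53.4 under RSM. It fell with HC3 in both polarizations (-0.87 ± 0.08 and -0.92 ± 0.09), with RSM in M[0] (-0.28 ± 0.08) and with IL-4 in Veh (-1.01 ± 0.08, FDR = 2.52e-08). That last value sat at the 2-fold limit and was -0.99 with no count filter, -0.94 without Veh M[0] replicate 3, -0.97 without Veh M[IL-4] replicate 3 and -0.996 without Veh M[0] replicate 2. *Card14* overlaps 21.6% of its exons on the opposite strand.

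Against these, 4 hydrolases rose in each inhibitor comparison. *Gla*, alpha-galactosidase A, rose by 0.37 to 0.49 and *Gaa*, the acid alpha-glucosidase of glycogen breakdown, by 0.34 to 0.60. *Neu1*, the lysosomal sialidase, rose by 0.39 to 0.67 and *Tpp1*, a tripeptidyl peptidase, by 0.37 to 0.61. In Veh M[0] the 4 averaged 225, 159, 115 and 353 CPM. *Gaa* and *Neu1* fell with IL-4 in Veh (-0.35 ± 0.07 and -0.43 ± 0.08). *Ppt1*, a palmitoyl-protein thioesterase, fell with HC3 (-0.76 in M[0], -0.55 in M[IL-4]) and with RSM in M[0] (-0.45). *Asah1*, acid ceramidase, fell with HC3 in M[0] (-0.38), *Galns* with RSM in M[0] (-0.36), and *Glb1*, beta-galactosidase, rose with RSM in M[IL-4] (0.29).

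The luminal cofactors were abundant. *Psap*, the precursor of the saposins that present sphingolipids to hydrolases, had the highest level per length of the set (4533 RPKM). It was at 8319, 10390 and 8583 CPM in Veh M[0] and at 11130, 13870 and 11270 under HC3, without overlap (0.41 ± 0.12, FDR = 0.00832). Under RSM it was at 9802, 12500 and 10520 CPM and overlapped Veh (0.27 ± 0.12, FDR = 0.0789, blocked FDR = 1.57e-06). In polarized cells it was at 13610, 17010 and 14490 CPM in Veh, 14350, 16110 and 13760 under HC3 and 11840, 14120 and 12240 under RSM. Both inhibitor groups overlapped Veh there, the RSM change being -0.24 (FDR = 0.118, blocked FDR = 8.11e-06), and IL-4 raised it in Veh (0.72 ± 0.12, FDR = 0.000108). *Grn*, progranulin, rose with both inhibitors in M[IL-4] (0.45 ± 0.06 with HC3, 0.65 ± 0.06 with RSM) and fell with IL-4 in Veh (-0.27 ± 0.06).

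Among membrane proteins, *Cd68*, a heavily glycosylated LAMP-family protein of macrophages, was highest per length (928 RPKM). It was at 1488, 1353 and 1328 CPM in Veh M[0], 977, 883 and 973 under HC3 and 946, 873 and 1025 under RSM. Both inhibitor groups lay below Veh (-0.56 ± 0.07 and -0.55 ± 0.07, FDR = 3.97e-06 and 4.73e-06). After IL-4 the values were 1322, 1373 and 1479 CPM in Veh, 1111, 1041 and 1046 under HC3 and 1236, 1195 and 1341 under RSM, and it fell with HC3 (-0.38 ± 0.07) but overlapped Veh under RSM (-0.15 ± 0.07, FDR = 0.118, blocked FDR = 0.0181). The structural proteins were steadier. *Lamp1* rose with RSM in both polarizations (0.31 and 0.34), *Lamp2* with HC3 in M[IL-4] (0.23), and *Cd63* with HC3 in M[0] (0.23), although 73.2% of the *Cd63* transcript is near-identical to its pseudogene. *Mcoln1*, the calcium channel TRPML1, rose with HC3 (0.52 and 0.56) and with RSM in M[IL-4] (0.32), and *Scarb2*, the receptor that carries glucocerebrosidase to lysosomes, fell in M[0] (-0.53 with HC3, -0.29 with RSM).

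**Figure D4:**
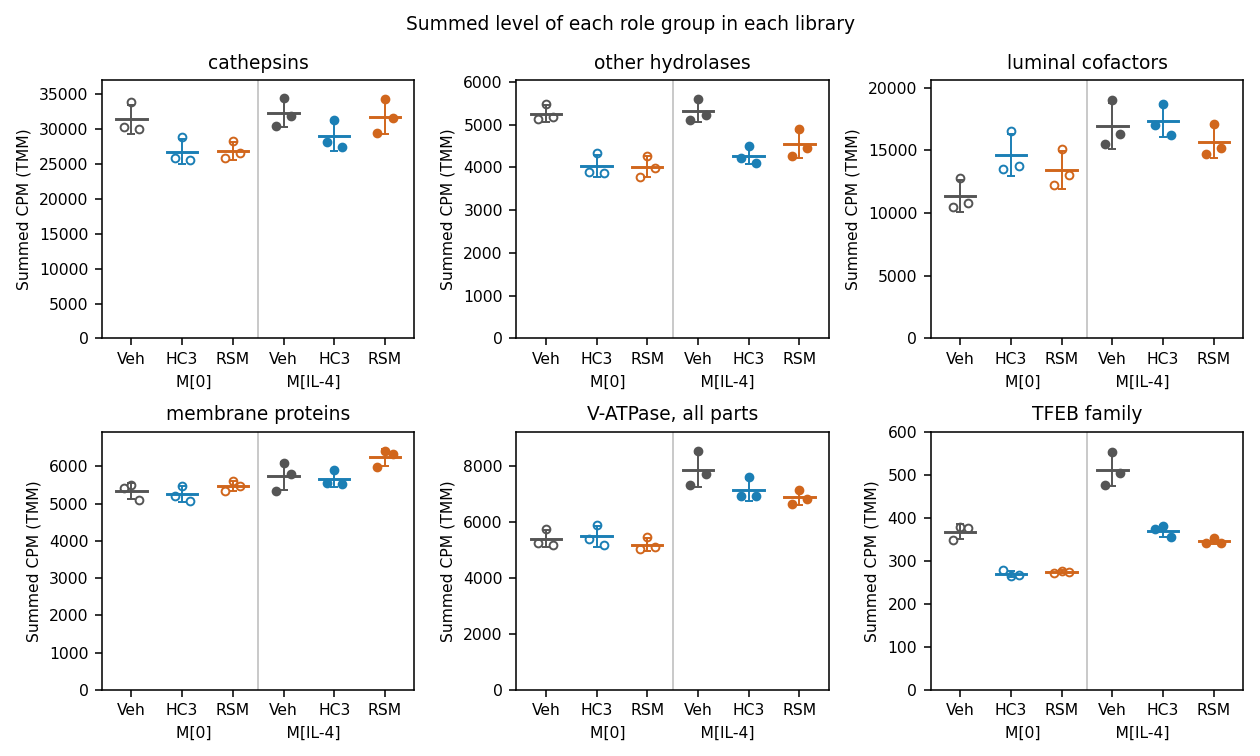
Summed CPM of each role group in each of the 18 libraries, on linear axes from 0. Circles are libraries (open for M[0], filled for M[IL-4]), lines are means and bars SD (n = 3). Other hydrolases and the TFEB family are lower in all inhibitor libraries than in Veh of the same polarization, and the V-ATPase sum is higher in all M[IL-4] libraries than in all M[0] libraries.

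The proton pump held genes of both directions. Of its 15 genes, 4 rose and 2 fell with HC3 in M[0] (26.7% and 13.3%, near the 22.6% and 21.5% of all genes), and with the block 8 rose (53.3%, beside 28.0%). With RSM in M[0], 7 rose and 3 fell (46.7% and 20.0%, beside 20.5% and 20.7%). With the block, 8 rose and 4 fell under RSM (53.3% and 26.7%, beside 25.7% and 25.2%). The medians without the block were 0.18 with HC3 and 0.14 with RSM. In M[IL-4], HC3 had 3 rising and 3 falling and RSM 5 and 4, beside 18.9% and 19.9% of all genes for HC3 and 20.1% and 18.5% for RSM. With the block, HC3 had 5 rising and 4 falling, beside 24.6% and 24.4% of all genes. RSM then had 7 and 4, beside 26.3% and 23.0%. With IL-4 in Veh, 6 rose, beside 16.1% of all genes, and the other 9 did not pass (median of the 15 genes 0.125). The summed level went from 5192 to 5762 CPM in Veh M[0] to 7350 to 8545 CPM in Veh M[IL-4]. Much of the higher sum lay in *Atp6v0a1*, *Atp6v0d2* and *Atp6v1b2*. Their means were 684.1, 190.8 and 790 CPM in Veh M[0] and 1699, 895.8 and 1245 CPM in Veh M[IL-4]. The sum therefore does not describe the 15 genes together.

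*Atp6v0d2* (ENSMUSG00000028238, chr4:19876841-19922605 of GRCm38), an alternative to the ubiquitous d subunit *Atp6v0d1* of the V0 stalk and a gene of fusing macrophages and osteoclasts, was the member that changed most. It was at 201, 211 and 160 CPM in Veh M[0], at 238, 270 and 181 under HC3 and at 59.3, 51.7 and 49.5 under RSM. RSM libraries lay below all others (-1.83 ± 0.17, FDR = 4.72e-08), and HC3 overlapped Veh (0.27 ± 0.16, FDR = 0.183) but was higher in each of the 3 same-numbered pairs (blocked FDR = 0.000612). In polarized cells it was at 768, 1078 and 842 CPM in Veh, 701, 972 and 732 under HC3 and 481, 614 and 518 under RSM. IL-4 raised it by 2.23 ± 0.16 in Veh, 1.80 ± 0.16 under HC3 and 3.33 ± 0.17 under RSM, and RSM remained below Veh in M[IL-4] (-0.74 ± 0.16, FDR = 0.000942). With HC3 in M[IL-4] the change was -0.16 (FDR = 0.452, blocked FDR = 0.0211).

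Per length, *Atp6v0d2* lay below *Atp6v0d1* in each M[0] group (70.2 and 105 RPKM in Veh, 84.6 and 132 under HC3, 19.7 and 133 under RSM) and above it in each M[IL-4] group (330 and 109, 295 and 128, 198 and 138). *Atp6v0d1* itself rose by 0.24 to 0.35 in the 4 inhibitor comparisons. Of the osteoclast markers, *Ocstamp* and *Dcstamp*, genes of cell fusion, and *Itgb3*, the integrin beta 3 chain, did not share 1 pattern. *Dcstamp* averaged 11.4, 3.35 and 0.263 CPM in Veh, HC3 and RSM M[0], and 78.7, 11.7 and 2.51 CPM after IL-4. *Ocstamp* averaged 0.337, 0.176 and 0 CPM in M[0], at or near the level of 3 counts (0.154 to 0.172 CPM), and 53.6, 11.9 and 1.73 in M[IL-4]. *Itgb3* averaged 14.4, 43.4 and 19.9 CPM in M[0], and 95.1, 87.5 and 115.9 CPM after IL-4. All 8 osteoclast markers together summed to between 112 and 126 CPM in Veh M[0], 100 and 130 in HC3 M[0], 85.9 and 101 in RSM M[0], 253 and 372 in Veh M[IL-4], 157 and 200 in HC3 M[IL-4] and 174 and 212 in RSM M[IL-4]. Their part in the *Atp6v0d2* result was not tested. Over the 6 group means of log2 CPM, the members most like *Atp6v0d2* were *Galns* (Pearson r = 0.948), *Atp6v0a1* (0.880) and *Hexa* (0.853), which is a description over 6 points.

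*Atp6v0a1* (ENSMUSG00000019302, chr11:101009452-101063719 of GRCm38), a membrane a subunit of V0, rose with IL-4 and fell with both inhibitors. It was at 659, 718 and 674 CPM in Veh M[0], 346, 357 and 341 under HC3 and 279, 296 and 307 under RSM. In M[IL-4] it was at 1639, 1780 and 1679 CPM in Veh, 942, 914 and 947 under HC3 and 966, 837 and 924 under RSM. No inhibitor library reached a Veh library of its polarization. In M[0] it changed by -0.98 ± 0.06 with HC3 and by -1.22 ± 0.06 with RSM, and in M[IL-4] by -0.86 ± 0.06 and -0.90 ± 0.06. The HC3 value in M[0] was -1.0 without Veh M[0] replicate 1 and -1.02 without HC3 M[0] replicate 2. IL-4 in Veh raised it by 1.31 ± 0.06 (FDR = 1.44e-11). The V1 subunit *Atp6v1b2* had the same directions at smaller size, with inhibitor changes of -0.43 to -0.74 and an IL-4 change of 0.66 ± 0.07.

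*Atp6v1c1* (ENSMUSG00000022295, chr15:38661933-38692446 of GRCm38), the C subunit that joins V1 to V0 when the pump assembles, went up with the inhibitors. It was at 282, 293 and 251 CPM in Veh M[0], 561, 640 and 511 under HC3 and 426, 486 and 433 under RSM. In polarized cells it was at 290, 322 and 280 CPM in Veh, 539, 645 and 546 under HC3 and 448, 522 and 479 under RSM, so Veh stood lowest in both polarizations. HC3 gave changes of 1.05 ± 0.09 (M[0]) and 0.96 ± 0.09 (M[IL-4]), whereas RSM gave 0.70 ± 0.09 in each. The first, the only one called, was 0.94 without HC3 M[0] replicate 2 and 0.99 without Veh M[0] replicate 3. The second reached 1.0 without HC3 M[IL-4] replicate 1 and 1.02 without Veh M[IL-4] replicate 2. IL-4 in Veh left it at 0.11 ± 0.09 (FDR = 0.41). *Atp6v1g1*, a stalk subunit, rose by 0.54 to 0.84 in the 4 comparisons, with 31.5% of its transcript near-identical to another locus.

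The catalytic subunit *Atp6v1a*, highest per length of the V1 genes (189 RPKM), did not pass in any inhibitor comparison without the block. It was at 1052, 1165 and 1032 CPM in Veh M[0], 1040, 1134 and 987 under HC3 and 1051, 1183 and 1068 under RSM. After IL-4 the values were 1060, 1241 and 1103 CPM in Veh, 1141, 1274 and 1191 under HC3 and 1203, 1353 and 1288 under RSM, with overlap throughout and changes between -0.04 ± 0.08 and 0.18 ± 0.08. The RSM value in M[IL-4] was higher in each of the 3 same-numbered pairs (FDR = 0.0819, blocked FDR = 0.000354). The accessory protein *Atp6ap1* was at 577, 588 and 538 CPM in Veh M[0], 558, 620 and 554 under HC3 and 667, 703 and 651 under RSM, and it rose with RSM (0.25 ± 0.07, FDR = 0.00841). After IL-4 the values were 506, 595 and 532 CPM in Veh, 563, 625 and 572 under HC3 and 664, 733 and 682 under RSM, where RSM again lay above all Veh libraries (0.35 ± 0.07, FDR = 0.000567) and the HC3 change was 0.11 (FDR = 0.243, blocked FDR = 0.0229).

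**Figure D5:**
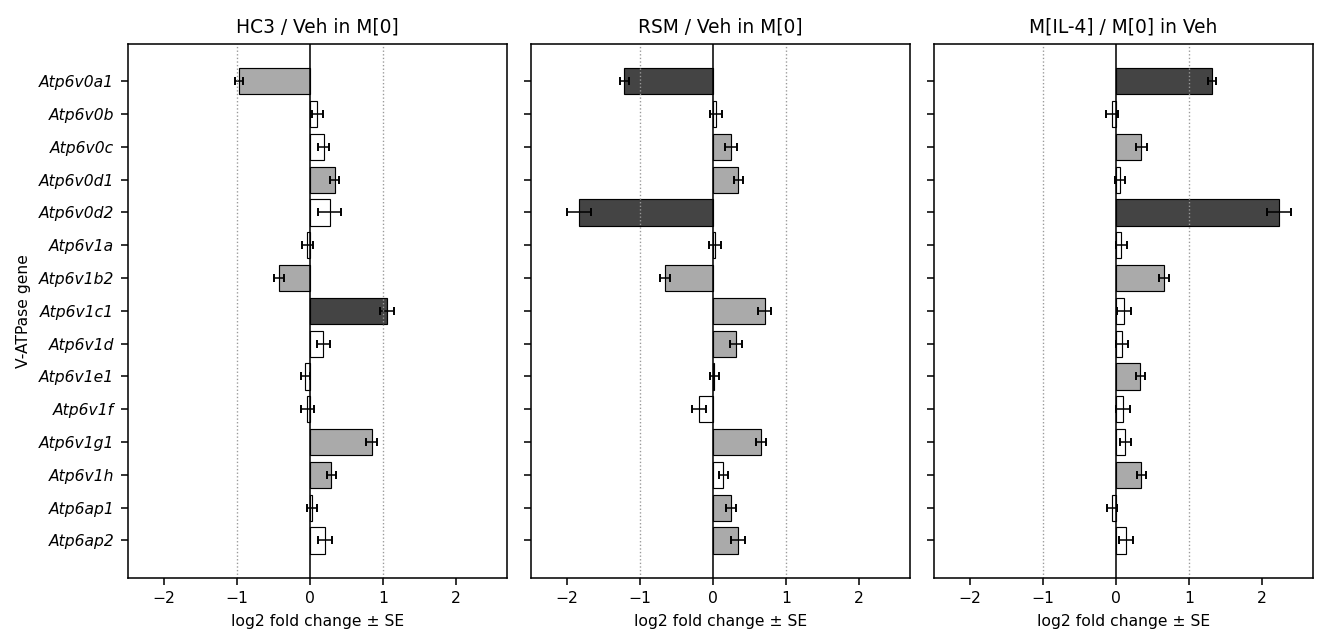
Log2 fold change (bars) with SE (whiskers) of the 15 V-ATPase genes for HC3 and RSM against Veh in M[0] and for IL-4 in Veh. White bars missed FDR under 0.05, light grey bars passed it and dark bars were also past the 2-fold limit (dotted lines). *Atp6v0a1* and *Atp6v0d2* reach 1.31 and 2.23 with IL-4, and *Atp6v0d2* differs between the inhibitors (0.27 and -1.83).

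The transcription factors were less abundant, with *Mitf* highest per length at 19.9 RPKM, *Tfe3* at 18.8 and *Tfeb* at 10.6. *Tfeb* (ENSMUSG00000023990, chr17:47737030-47792419 of GRCm38) was at 59.1, 72.7 and 74.7 CPM in Veh M[0], 47.1, 41.5 and 48.9 under HC3 and 30.1, 32.8 and 34.2 under RSM. In M[IL-4] it was at 102, 107 and 102 CPM in Veh, 69.4, 56.8 and 55.7 under HC3 and 51.1, 45.8 and 46.7 under RSM. In both polarizations Veh was highest and RSM lowest with no overlap. HC3 gave changes of -0.59 ± 0.10 (M[0]) and -0.77 ± 0.09 (M[IL-4]), and RSM gave -1.09 ± 0.10 and -1.12 ± 0.10. The RSM changes were called (FDR = 4.43e-08 and 2.48e-08), and IL-4 raised *Tfeb* in Veh by 0.59 ± 0.09.

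*Mitf* (ENSMUSG00000035158, chr6:97807052-98021349 of GRCm38) had a like pattern. It was at 113, 117 and 109 CPM in Veh M[0], 72.1, 65.1 and 63.7 under HC3 and 72.3, 68.4 and 67.4 under RSM. In polarized cells it was at 189, 259 and 215 CPM in Veh, 133, 158 and 137 under HC3 and 113, 135 and 126 under RSM. The inhibitor groups lay below Veh and overlapped each other, with changes of -0.76 and -0.63 with HC3 and of -0.70 and -0.83 with RSM (each ± 0.10). IL-4 raised it by 0.97 ± 0.10 in Veh (FDR = 3.08e-07), just under the 2-fold limit, and by 1.05 without Veh M[IL-4] replicate 1.

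*Tfe3* (ENSMUSG00000000134, chrX:7762560-7775202 of GRCm38) differed least of the 3. It was at 177, 190 and 192 CPM in Veh M[0], 159, 160 and 154 under HC3 and 169, 176 and 174 under RSM. After IL-4 the values were 187, 187 and 187 CPM in Veh, 172, 166 and 162 under HC3 and 179, 174 and 171 under RSM. Inhibitor libraries were all below Veh, yet by small amounts. The falls of -0.24 ± 0.05 and -0.17 ± 0.05 with HC3 passed (FDR = 0.000485 and 0.00894), and the -0.11 ± 0.05 and -0.10 ± 0.05 with RSM did not (FDR = 0.0876 and 0.112), the first having a blocked FDR = 0.0403.

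IL-4 alone, in Veh, called 2 of the 51 members higher, *Atp6v0d2* and *Atp6v0a1* (3.92%, beside 2.83% of all genes), and 1 lower, *Sgsh* (1.96%, beside 3.83%). By FDR alone 14 rose (27.5%, beside 16.1%) and 9 fell (17.6%, beside 14.9%), and the median was 0.10, beside -0.01 for all genes. Under HC3, IL-4 called *Atp6v0d2*, *Atp6v0a1* and *Mitf* (1.09 ± 0.10) higher and *Sgsh* (-1.06 ± 0.09) lower, which is 7.84% beside 3.97% of all genes. Under RSM it called *Atp6v0d2* and *Atp6v0a1* (1.63 ± 0.06), which is 3.92% beside 4.26%.

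Set against each other, 250 µM HC3 and 5 µM RSM differed by FDR alone in 15 members in M[0] (29.4%, beside 13.6% of all genes), of which 7 were higher and 8 lower under HC3. In M[IL-4] they differed in 14 (27.5%, beside 13.0%), 3 higher and 11 lower. With the block they differed in 26 (51%, beside 26.6% of all genes) and 23 (45.1%, beside 24.1%). The called ones were *Ctsc* and *Atp6v0d2* (2.10 ± 0.17, higher under HC3) in M[0] (3.92%, beside 3.04%) and *Ctsl* in M[IL-4] (1.96%, beside 2.80%). *Sgsh* was lower under HC3 in both (-0.59 ± 0.08 and -0.91 ± 0.09), as were *Lgmn* (-0.40 ± 0.07 and -0.68 ± 0.07) and *Ppt1* (-0.31 ± 0.08 and -0.48 ± 0.08), while *Tfeb* was higher (0.50 ± 0.10 and 0.34 ± 0.10).

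An interaction term tested whether the effect of an inhibitor depended on polarization. With HC3, 4 members passed the FDR (7.84%, beside 6.48% of all genes) and none was past the 2-fold limit (beside 1.24%). That count of 0 stood beside 7 members higher and 5 lower at an unadjusted p under 0.05, and DESeq2 also called 0. With RSM, 10 passed the FDR (19.6%, beside 9.19%) and 1, *Atp6v0d2*, was called (1.96%, beside 2.14%). With the replicate block within polarization, 14 passed for HC3 (27.5%, beside 17.3%) and 27 for RSM (52.9%, beside 19.4%), and no member that passed without it was lost. The RSM effect was less negative in M[IL-4] for *Atp6v0d2* (by 1.10 ± 0.23), *Lgmn* (0.82 ± 0.10) and *Ctsf* (0.78 ± 0.20), and more positive for *Ctsl* (0.72 ± 0.11). The rise of *Ctsk* was smaller in M[IL-4] with both inhibitors (-0.63 ± 0.14 for HC3 and -0.997 ± 0.14 for RSM). Without Veh M[0] replicate 1, RSM M[0] replicate 2, or replicate 3 of Veh or RSM M[IL-4], the RSM value for *Ctsk* lay between -1.01 and -1.06 and would have been called.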

How the data were processed

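RNA of 18 BMDM libraries in 6 groups of 3 was measured by poly-A sequencing. Reads were trimmed (fastp) and aligned to GRCm38 (STAR) by the authors, who marked duplicates with Picard without removing them, and deposited raw read counts per gene over exons from featureCounts of the Subread package; versions, annotation release and strand setting are not given in the sources used here. Genes were named through Ensembl identifiers of GENCODE M21 (55144 of 55385 matched), and overlaps and near-identical copies of members were looked up in the same annotation (blastn 2.17.0). The filter on low values required 10 counts or more in 2 or more libraries, which left 14979 genes.

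The counts were fitted with edgeR 4.0.16 (R 4.3.3; TMM, quasi-likelihood) in 1 model of 6 group means over the 18 libraries, without the replicate number, and Benjamini-Hochberg adjustment over all genes tested. A call needed an FDR below 0.05 together with a 2-fold change or more. CPM used TMM library sizes and RPKM the merged exon length. The fit was tested on simulated data. Members and gene lists were chosen with earlier results of these data known. The text gives in full the called members, the TFEB family and the member of highest level per length in each role, and, of each further list, up to 2 called genes of lowest FDR per comparison.

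Replicate numbers were checked for pairing: deviations from the group means correlated above 0.1 in 18 of 18 same-numbered pairs within a polarization (r between 0.183 and 0.564), and in 16 of 27 across polarizations. The numbers were thus treated as pairing libraries within a polarization, and fits with a replicate block were run as alternatives. Others were DESeq2 1.42.0, no filter, filterByExpr, library size scaling, the compared groups alone, and each library left out.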

Additional observations from a re-analysis of the deposited data

Results flagged for a closer look

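Differences between the inhibitor effect in M[IL-4] and in M[0] drew attention in 14 tests of members, each passing FDR under 0.05 for the interaction term in edgeR. With HC3 these were *Ctsc* (0.58 ± 0.15 on the log2 scale, FDR = 0.0224), *Ctsk* (-0.63 ± 0.14, FDR = 0.00872), *Lgmn* (0.55 ± 0.10, FDR = 0.00169) and *Scarb2* (0.45 ± 0.13, FDR = 0.0409). Mean *Ctsc* levels went from 233.6 CPM in Veh to 96.8 under HC3 in M[0], and from 133 to 82.2 in M[IL-4].

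With RSM the cathepsins were *Ctsf* (0.78 ± 0.20, FDR = 0.0152), *Ctsk* (-0.997 ± 0.14, FDR = 9.35e-05), *Ctsl* (0.72 ± 0.11, FDR = 0.000308) and *Lgmn* (0.82 ± 0.10, FDR = 2.04e-05). Mean *Ctsl* levels went from 1647 CPM in Veh to 3185 under RSM in M[0], and from 1762 to 5606 in M[IL-4]. The others were *Ppt1* (0.38 ± 0.11, FDR = 0.0441), *Grn* (0.49 ± 0.09, FDR = 0.00125), *Cd68* (0.41 ± 0.10, FDR = 0.0147), *Scarb2* (0.53 ± 0.13, FDR = 0.0119), *Atp6v0a1* (0.32 ± 0.09, FDR = 0.0251) and *Atp6v0d2* (1.10 ± 0.23, FDR = 0.00381). In 12 of the 14 the inhibitor effect was more positive in M[IL-4] than in M[0]. Of all genes that passed, 461 were more positive and 509 more negative for HC3, and 757 and 620 for RSM. The 14 tests are not independent, since they share the Veh libraries and count *Ctsk*, *Lgmn* and *Scarb2* for both inhibitors. With the replicate block within polarization, 14 members passed the HC3 term and 27 the RSM term. Groups of 3 libraries were too small for a test of outlying libraries.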

How the results depend on the processing

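Of 4568 member values under alternatives, 4544 kept their side of the call, 17 passed the limit and 7 lost it. In 88 the sign differed from the main value, none of them passing the FDR in either fit, and those main changes were at most 0.12 in size. The replicate block, over all libraries or within polarization, changed no count of called members. Members that rose with HC3 in M[0] by FDR alone went from 16 (31.4%, beside 22.6% of all genes) to 21 and 23. The 23, with the block within polarization, are 45.1%, beside 28.0% of all genes, whose count went from 3384 to 4190. No member that passed the FDR lost it with the block used beside its comparison. With library size scaling, RSM in M[0] called 2 higher (*Ctsl* 1.01) and HC3 in M[IL-4] called 1 higher (*Atp6v1c1* 1.01). Without the count filter IL-4 in Veh called 0 lower (*Sgsh* -0.99). With DESeq2, no filter or library size scaling, the RSM interaction called 1 lower (*Ctsk*), and for these settings the cause was not tested.

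Leaving out 1 library at a time gave 1 to 2 called higher and 10 to 18 higher by FDR alone for HC3 in M[0], 1 to 2 called higher for RSM in M[0], 0 to 1 called higher and 1 to 2 called lower for HC3 in M[IL-4], 0 to 1 called lower for IL-4 in Veh and 0 to 1 called lower for the RSM interaction. The libraries concerned were Veh M[0] replicates 1, 2 and 3, HC3 M[0] replicates 1 and 2, RSM M[0] replicate 2, Veh M[IL-4] replicates 2 and 3, HC3 M[IL-4] replicates 1 and 3 and RSM M[IL-4] replicate 3. The fits differ by 1 library fewer. The lowest member, *Ctsf*, held at least 6.36 CPM in every library, where 3 counts correspond to 0.154 to 0.172 CPM.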

Other observations

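Genes around the lysosome were followed in lists that hold no member. Of 27 further hydrolases and lumen proteins, 9 rose and 14 fell with HC3 in M[0] by FDR alone, and 8 rose and 14 fell with RSM (medians -0.33 and -0.27), where 22.6% and 20.5% of all genes rose and 21.5% and 20.7% fell. *Scpep1*, a serine carboxypeptidase, was called higher in all 4 inhibitor comparisons (1.02, 1.04, 1.07 and 1.30), and *Pla2g15*, the lysosomal phospholipase A2, was called lower in M[0] (-1.10 with HC3, -1.56 with RSM). With IL-4 in Veh, 9 of the 27 rose and 6 fell (all genes 16.1% and 14.9%), and *Acp5*, the tartrate-resistant acid phosphatase, was among those called higher (1.23). Of 24 further membrane proteins, *Tpcn1*, an endolysosomal cation channel, was called lower in all 4 (-1.33, -1.30, -1.12 and -1.19) and *Laptm4b* higher in all 4 (1.32, 1.03, 1.76 and 1.71), while medians stayed between -0.09 and 0.09 across the inhibitor and IL-4 comparisons. Of 12 further V-ATPase genes tested of 18 listed, *Rogdi* (-1.10 and -1.31) and *Atp6v1g2* (-1.30 and -1.07) were called lower in M[0]. Of 15 genes of delivery to lysosomes, *Sort1*, the sorting receptor sortilin, was called lower with HC3 in M[0] (-1.08) and *Sorl1* with IL-4 in Veh (-1.71).

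Among 5 cystatins and other cathepsin inhibitors tested of 9 listed, *Cst3*, cystatin C, was called lower with HC3 in M[0] (-1.21) and with RSM in both polarizations (-1.68 and -1.16). *Cst7*, cystatin F, was called lower with RSM in M[0] (-2.44) and higher with IL-4 in Veh (2.55). Its RSM M[0] libraries (0.0523 to 0.107 CPM) all lay below the level of 3 counts there (0.159 to 0.167 CPM). Its Veh M[0] libraries held only 0.411 to 0.553 CPM, so the size of the fall with RSM is uncertain. *Serpinb9* was called higher with HC3 in M[0] (1.03). Of 15 genes of mTORC1, folliculin and TFEB regulation, *Rragd*, a Rag GTPase, was called higher with HC3 in M[0] (1.15), *Ywhah*, a 14-3-3 protein, lower with RSM in both polarizations (-1.12 and -1.04), *Rragb* lower with RSM in M[0] (-1.54), and *Tfec*, the remaining relative of TFEB, higher with IL-4 in Veh (1.33). Of 20 autophagy genes, *Sqstm1*, the cargo receptor p62, was called higher in all 4 inhibitor comparisons (1.77, 1.68, 1.93 and 1.62). *Optn* was called higher with HC3 (1.18 and 1.23), and *Atg9b* was called lower with RSM in M[IL-4] (-1.615). By FDR alone 4 of the 20 rose and 5 fell with HC3 in M[0], beside 22.6% and 21.5% of all genes. With the replicate block, 7 rose and 6 fell (35.0% and 30.0%), beside 28.0% and 25.5% of all genes. With IL-4 in Veh, 10 of the 20 fell and 1, *Atg9b*, rose (1.23), beside 14.9% and 16.1% of all genes. No test set these lists against other genes.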
